A study of Mus musculus with 6 samples.

Results

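Vstm2a, Tnfrsf21, Nfyb, Txlng, Dck and Csrnp2 are 6 mouse genes whose RNA gave a much higher array signal in pulldowns of the RNA-binding protein HuD than in control pulldowns. They were picked from an earlier analysis of these same arrays for that difference, so their difference between the HuD and IgG arrays is given as a description, and no p-value is read from it. All probe sets annotated to 1 of these symbols were taken, which gave 6 of 18193 named genes and 11 of the 45101 probe sets on the array. Vstm2a and Csrnp2 have 1 probe set each, Tnfrsf21, Nfyb and Txlng have 2 each, and Dck has 3.

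The samples were hippocampal RNA from mice, hybridised to 6 one-colour Affymetrix arrays. For 3 arrays the RNA had been recovered on protein-G beads with an anti-myc antibody directed at transgenic HuD. For 2 arrays it came from protein-G beads carrying non-immune IgG, and 1 array held the total RNA put into the pulldowns. The labels give no strain, age, sex, transgene promoter or number of animals for any group, nor do they say whether the arrays came from separate preparations.

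HuD is the product of Elavl4, and like other ELAV proteins of neurons it binds U-rich and AU-rich stretches, mostly in the 3′ untranslated regions of mRNAs. It is known for stabilising its targets and aiding their translation. In the hippocampus it is known for its part in neuronal differentiation and plasticity. A pulldown compared with IgG beads shows which RNAs take a larger share of the signal with the protein than on the beads alone. The input array gives the share of each RNA before any pulldown. Each array had been scaled to the same average level, so a higher signal is a larger share of the RNA on that array and not a larger amount.

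The 6 genes do unrelated work in the cell. Vstm2a encodes a secreted protein with an immunoglobulin domain, best known from fat cell precursors. Tnfrsf21 encodes death receptor 6, a receptor of the tumour necrosis factor family with a cytoplasmic death domain that acts in axon pruning. Nfyb encodes a histone-fold subunit of NF-Y, the transcription factor that binds the CCAAT box. Txlng encodes gamma-taxilin, a coiled-coil partner of syntaxins. Dck encodes deoxycytidine kinase, which salvages deoxynucleosides for DNA synthesis, and Csrnp2 encodes a cysteine- and serine-rich nuclear protein.

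Vstm2a, read by probe set 1452065_at, had signals of 4417.1, 3245.2 and 2854.1 on HuD arrays 1, 2 and 3. Its signals were 344.1 and 454.6 on IgG arrays 1 and 2 and 711.9 in the input. The HuD arrays lay far above all others, and both IgG arrays lay below the input. On the scale of log2(signal + 32), used for all differences here, HuD exceeded IgG by 3.02 ± 0.27, a fold of 8.13, and exceeded the input by 2.23 ± 0.34, a fold of 4.68. Errors after ± on this scale are standard errors from a linear model fitted with limma to all probe sets.

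Tnfrsf21 was brightest on probe set 1450731_s_at, with 2084.6, 2683.2 and 2095.5 on the HuD arrays, 278.6 and 257.4 on the IgG arrays and 463.9 in the input. The IgG signals were nearly equal to each other, and the lowest HuD signal was 7.48 times the highest IgG signal. HuD exceeded IgG by 2.94 ± 0.22 (7.68-fold) and the input by 2.22 ± 0.28 (4.65-fold). The second probe set, 1422740_at, was dimmer, with 164.9, 264.0 and 183.9 on the HuD arrays, 49.6 and 56.5 on the IgG arrays and 68.1 in the input. It had the same order of groups with smaller differences, 1.45 ± 0.26 (2.74-fold) over IgG and 1.22 ± 0.33 (2.32-fold) over the input. Both probe sets are annotated to the same source sequence. The suffix s in the name of the brighter one marks probes that several transcripts can share, so its signal may include RNA of other genes.

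Nfyb had the tightest HuD signals of the 6, at 2687.1, 2800.4 and 2655.6 on probe set 1419267_at, a coefficient of variation of 2.81%. Its IgG signals were 270.6 and 417.5, and the input, at 345.6, lay between them. HuD exceeded IgG by 2.90 ± 0.24 (7.45-fold) and the input by 2.86 ± 0.30 (7.27-fold), so the size of the difference hardly depended on which of the 2 was the baseline. Its other probe set, 1419266_at, from the same source sequence, gave 607.7, 803.7 and 368.3 on the HuD arrays, 326.8 and 201.4 on the IgG arrays and 147.9 in the input. There the lowest HuD array was only 1.13 times the highest IgG array, and the differences were 1.05 ± 0.35 over IgG and 1.73 ± 0.44 over the input.

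Txlng showed the sharpest split between probe sets of a gene. Probe set 1439131_at gave 1277.4, 1705.1 and 1430.0 on the HuD arrays, 143.4 and 199.0 on the IgG arrays and 208.7 in the input. The HuD arrays stood clear of the rest, by 2.89 ± 0.24 over IgG (7.42-fold) and 2.63 ± 0.30 over the input (6.20-fold). Probe set 1434681_at gave 112.8, 112.3 and 151.2 on the HuD arrays, 118.8 and 135.4 on the IgG arrays and 124.8 in the input. The 3 groups overlapped there, with HuD differing from IgG by −0.02 ± 0.24 and from the input by 0.00 ± 0.30, rounded from −0.00344. With each array centred on its 75th percentile the difference from IgG was 0.29. These probe sets are annotated to different source sequences, and which Txlng transcripts each of them reads was not tested.

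Dck was read by 2 bright probe sets and 1 very dim one. Probe set 1439012_a_at gave 3875.0, 5612.0 and 4026.6 on the HuD arrays, 779.4 and 989.2 on the IgG arrays and 513.8 in the input. Both IgG arrays were above the input there, and HuD exceeded IgG by 2.30 ± 0.26 (4.91-fold) and the input by 3.03 ± 0.33 (8.20-fold). Probe set 1449176_a_at gave 1092.3, 1177.0 and 906.4 on the HuD arrays, 94.4 and 146.9 on the IgG arrays and 209.8 in the input. Here both IgG arrays were below the input, so the order of the differences turned round, with 2.85 ± 0.25 (7.21-fold) over IgG and 2.16 ± 0.31 (4.48-fold) over the input.

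The dim Dck probe set, 1428838_a_at, had signals between 2.4 and 14.6 on the HuD arrays, 1.2 and 2.2 on the IgG arrays and 2.6 in the input. All of these are below the 32 added before taking logs, so its difference of 0.31 ± 0.15 says little about a fold. The HuD array with 2.4 lay below the input.

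Csrnp2, read by probe set 1434532_at, gave 2555.9, 4525.4 and 3757.0 on the HuD arrays, 442.6 and 636.6 on the IgG arrays and 426.4 in the input. Its HuD signals were the most spread of the 6 brightest probe sets, with a coefficient of variation of 27.5%, but the lowest was still 4.01 times the highest IgG signal. HuD exceeded IgG by 2.66 ± 0.30 (6.30-fold) and the input by 2.95 ± 0.38 (7.74-fold).

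**Figure D1:**
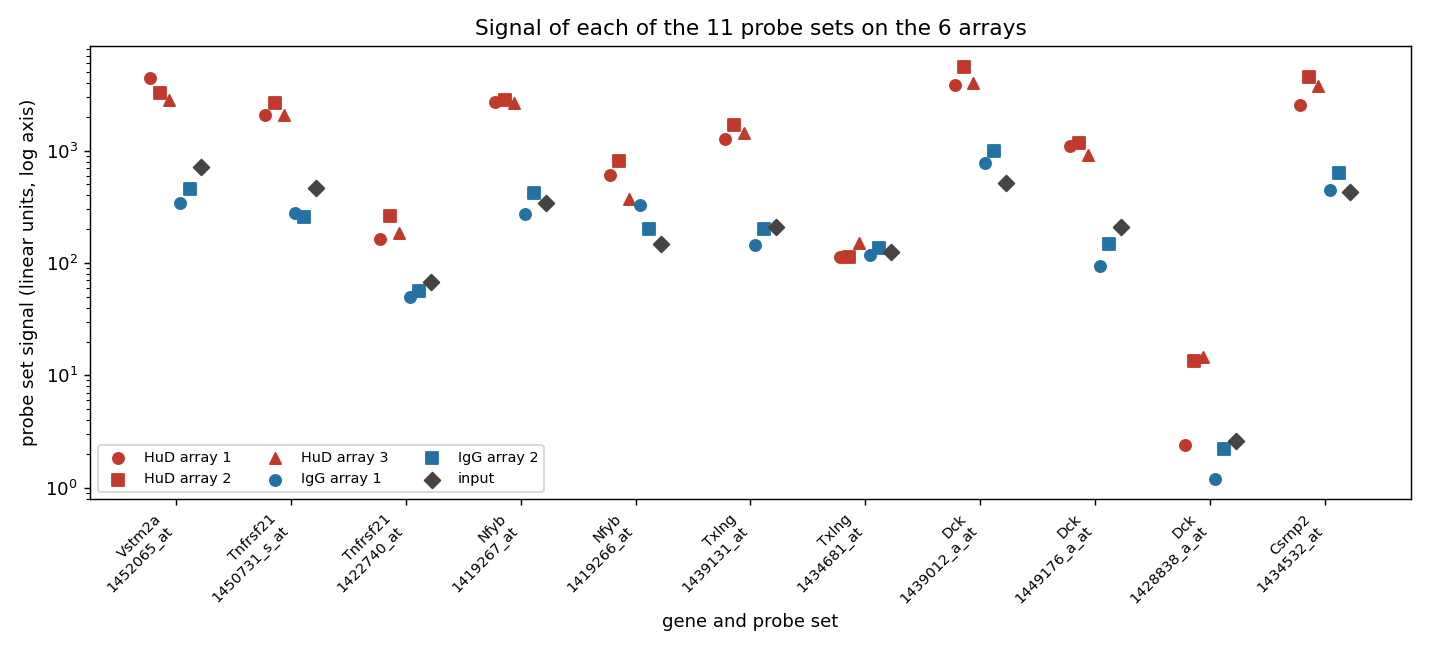
Signal of each of the 11 probe sets (horizontal axis) on the 6 arrays, on a logarithmic vertical axis in the deposited linear units, with HuD arrays in red, IgG arrays in blue and the input in dark grey. On the brightest probe set of each gene the 3 HuD arrays lie above the other 3, while those of Txlng 1434681_at overlap with the rest.

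In all, 9 of the 11 probe sets had every HuD array above both IgG arrays and the input, an order found in 13.2% of the 45037 probe sets tested. By limma with Benjamini-Hochberg adjustment over those probe sets, 8 of the 11 were past an adjusted p of 0.05 with HuD higher than IgG, against 5.73% of all probe sets. Since the genes were chosen on this difference, nothing is read from either count. Across all probe sets 2579 were higher and 3918 lower in HuD, so 39.7% of calls were higher. That share was 76.7% with 75th percentile centring, 53.3% with median centring and 53.5% with quantile normalization. The calls over all probe sets also depended on single arrays, with 725 calls without HuD array 1, 3604 without HuD array 2 and 1251 without HuD array 3. The balance turned too, with 77.9% of calls higher without HuD array 1 and 65.5% without HuD array 3.

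**Figure D2:**
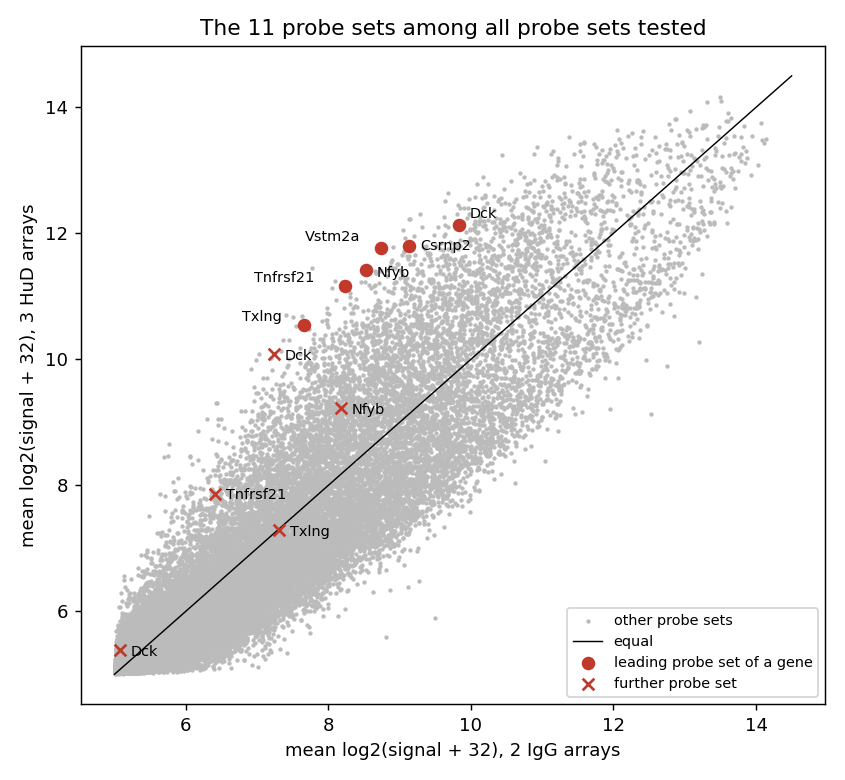
Mean log2(signal + 32) over the 3 HuD arrays (vertical axis) against that over the 2 IgG arrays (horizontal axis) for all 45037 probe sets tested (grey), with the black line marking equal values. The 6 brightest probe sets of the genes (red circles) lie near the upper edge of the cloud, and the other 5 (crosses) range from that edge, for Dck at 2.85 above the line, to the line itself for Txlng.

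For the 6 brightest probe sets, which the text calls leading (the highest mean over all 6 arrays), the place among all probe sets depended on the baseline. Ranked by HuD minus IgG, Vstm2a was 11th, Tnfrsf21 18th, Nfyb 20th, Txlng 22nd, Csrnp2 59th and Dck 172nd. Ranked by HuD minus input, Dck was 9th, Csrnp2 16th, Nfyb 23rd, Txlng 57th, Vstm2a 203rd and Tnfrsf21 210th. These comparisons share the HuD arrays, and the ranks are a description. The second bright probe set of Dck, 1449176_a_at, was 28th against IgG and 240th against the input. The place of Dck in either order thus depended on the probe set. Ranks 11 to 22 covered differences from 2.89 to 3.02 with standard errors from 0.22 to 0.27, so these 4 genes are not separated beyond their errors. The order against the input, from Dck at 3.03 ± 0.33 to Tnfrsf21 at 2.22 ± 0.28, rests on 1 input array.

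The 2 IgG arrays and the input were then compared, a contrast that was not the one used to pick the genes but shares its IgG arrays. The mean IgG signal was between 0.56 and 1.72 times the input signal for the 6 leading probe sets, and 0 of the 11 probe sets passed an adjusted p of 0.05 by limma. Over all 45037 probe sets the share called was 0%, and 3326 had an unadjusted p under 0.05, among them 1 of the 11. Both IgG arrays lay below the input for Vstm2a (−0.80 ± 0.36, adjusted p = 0.684 by limma), Tnfrsf21 (−0.73 ± 0.30, adjusted p = 0.658 by limma) and Txlng (−0.26 ± 0.32). Both lay above it for Dck (0.74 ± 0.35, adjusted p = 0.706 by limma) and Csrnp2 (0.30 ± 0.40), and those for Nfyb lay on either side (−0.03 ± 0.32). The second bright probe set of Dck stood at −0.69 ± 0.33 (adjusted p = 0.710 by limma), opposite in sign to the first. With 2 arrays against 1, these intervals leave room for differences of about the size seen, and a p above the threshold does not show that background and input were alike.

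**Figure D3:**
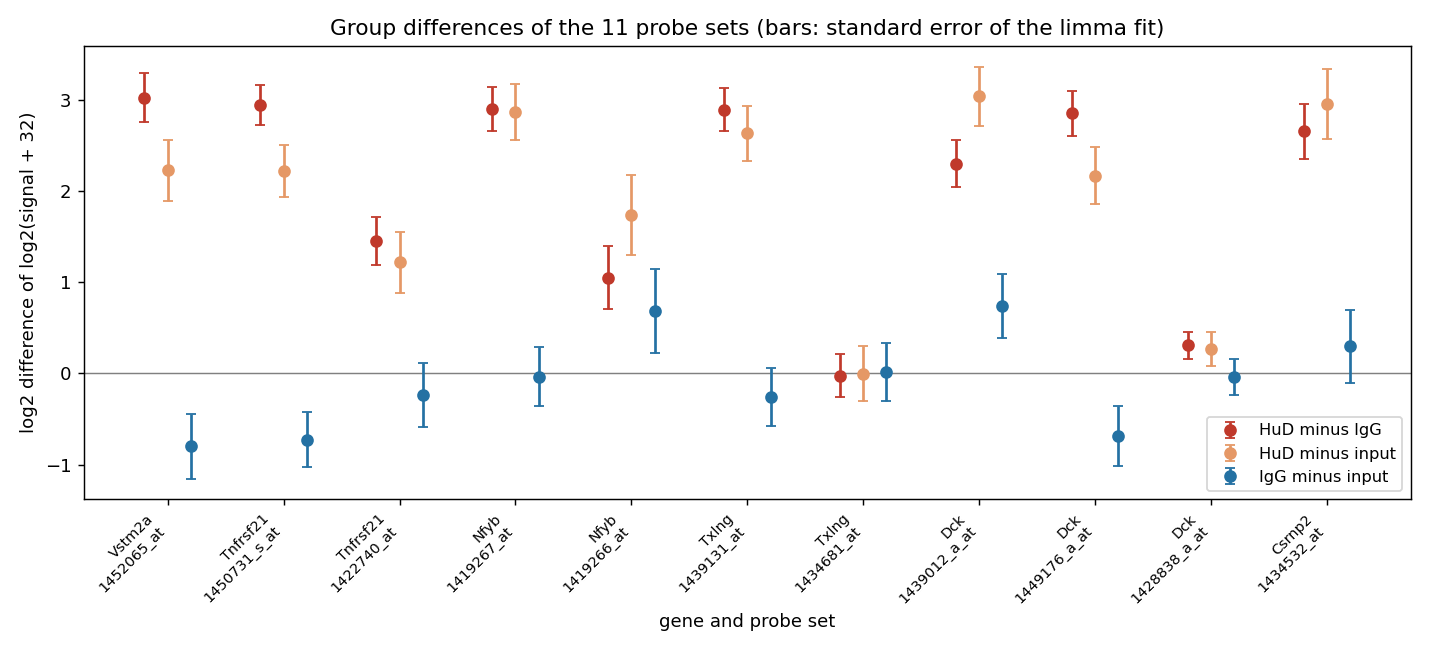
Differences in log2(signal + 32) between the groups for the 11 probe sets, with points for HuD minus IgG (red), HuD minus input (orange) and IgG minus input (blue) and bars for the standard error of the limma fit. IgG minus input runs from −0.80 for Vstm2a to 0.74 for Dck 1439012_a_at, and the red and orange points change places where the blue point changes sign.

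On the leading probe sets the spans within a group were smaller than the differences between HuD and IgG. The HuD arrays spanned between 0.08 and 0.82 on the log2 scale, with the largest span for Csrnp2 and the smallest for Nfyb. The IgG pair spanned between 0.10 for Tnfrsf21 and 0.57 for Nfyb. HuD array 2 held the highest HuD signal for 5 of the 6, and HuD array 1 for Vstm2a. IgG array 2 was above IgG array 1 for 5 of the 6, with Tnfrsf21 as the exception. The array titles carry 2 kinds of ending, le1 and e1_le1, whose meaning the labels do not give. Within le1 (HuD array 1 and IgG array 1) the leading differences ran from 2.27 to 3.56, and within e1_le1 from 2.23 to 3.05. Vstm2a stood at 3.56 within le1 and 2.66 within e1_le1, while Dck stood at 2.27 and 2.23. On the second bright probe set of Dck, 1449176_a_at, the values were 3.15 within le1 and 2.57 within e1_le1.

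Across the 6 arrays, the pattern of each gene's leading probe set was compared with those of other probe sets. The measure was the root mean square difference of log2 values centred on their mean. The members nearest to each other were Nfyb and Txlng, at 0.14. The farthest apart were Vstm2a and Dck, at 0.60, with a median of 0.33 over the 15 pairs. Further probe sets of the 6 genes were left out of this measure. The second bright one of Dck, 1449176_a_at, stood at 2.85 over IgG and 2.16 over the input, near Vstm2a at 3.02 and 2.23. The distance of Dck from Vstm2a thus belongs to its leading probe set. Among all other named genes the closest to Txlng was Sod2, the mitochondrial superoxide dismutase, at 0.05, with 3192.2, 4646.0 and 3832.8 on the HuD arrays, 423.1 and 608.8 on the IgG arrays and 617.1 in the input. Next came Ugcg, the glucosylceramide synthase, at 0.07 and Cul3, a scaffold of ubiquitin ligases, at 0.11. Nfyb lay closest to the synaptic adhesion gene Lrrtm4 (0.09), the glypican gene Gpc4 (0.12) and Ugcg (0.12). Both Nfyb and Txlng thus had Ugcg among their 3 nearest genes.

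Vstm2a lay closest to the zinc finger gene Zc4h2 (0.18), the scaffold gene Lin7c (0.20) and the ubiquitin-conjugating variant Ube2v2 (0.22). Tnfrsf21 lay closest to the tetraspanin gene Tspan5 (0.15), Wdr37 (0.16) and again Zc4h2 (0.17). For each of these 5 genes both IgG arrays were below the input, as for Vstm2a and Tnfrsf21 themselves. Dck lay closest to the adhesion gene Alcam (0.14), the transcription factor gene Foxp1 (0.15) and, through another of its probe sets, Lrrtm4 (0.15). All of these had both IgG arrays above the input, as on the leading probe set of Dck. On Dck 1449176_a_at both IgG arrays lay below the input, so these neighbours belong to the leading probe set alone. Csrnp2 lay closest to Ywhaz, a 14-3-3 protein gene (0.14), the transcription factor gene Tshz3 (0.14) and Fam120aos (0.16), which overlaps a gene on the opposite strand and is uncertain for that reason. These likenesses are over 6 arrays and were chosen as the smallest among all named genes. The IgG and input arrays entered the measure, so a shared order of those arrays is part of the choice and no separate result.

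Relatives of the 6 genes were taken from lists of paralogs, complex partners and pathway members. Of 43 such genes 41 had a named probe set, and on the leading probe set of each 4 rose and 2 fell between IgG and HuD by limma. That is 9.76% and 4.88%, against 8.35% and 12.1% of all 18193 genes on their leading probe sets. The median difference of the 41 was 0.02, beside −0.11 over all genes. With 75th percentile centring 12 rose and 1 fell, a setting that adds 0.32 to every difference between HuD and IgG.

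Of 10 paralogs and partners of Vstm2a, Nfyb, Txlng and Csrnp2, 0 passed the threshold on their leading probe sets by limma, while 2 were higher and 1 lower with HuD at an unadjusted p under 0.05. Over the leading probe sets of all genes 13.3% were higher and 23.8% lower at that p, so counts this small are not set apart from the background. In the Vstm family Vstm2b was at 0.73 ± 0.25 (adjusted p = 0.0958 by limma), Vstm2l at −0.29 ± 0.24, Vstm4 at −0.09 ± 0.26 and Vstm5 at −0.99 ± 0.30 (adjusted p = 0.0606 by limma). The signals of Vstm2b were 433.9, 537.4 and 350.0 on the HuD arrays, 216.5 and 286.3 on the IgG arrays and 252.9 in the input, with no overlap between HuD and the rest. A dimmer probe set of Vstm2b, 1447425_at, passed at 1.26 ± 0.30 (adjusted p = 0.0292 by limma).

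The partners of Nfyb in NF-Y, which bind DNA only as a trimer with it, had small differences. Nfyc gave 933.9, 875.9 and 1052.9 on the HuD arrays, 524.4 and 717.9 on the IgG arrays and 639.9 in the input, a difference of 0.61 ± 0.23 (adjusted p = 0.123 by limma). Every HuD array was above the other 3, but by far less than for Nfyb. Nfya was dim, between 62.1 and 142.4 on the HuD arrays and at 57.5 and 29.2 on the IgG arrays, and stood at 0.68 ± 0.34 (adjusted p = 0.237 by limma).

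Among the taxilins Txlna stood at −0.09 ± 0.31 and Txlnb at −0.50 ± 0.29, neither past the threshold, and all signals of both leading probe sets were under 100. A second probe set of Txlna, 1434157_at, fell by 0.95 on the log2 scale (adjusted p = 0.0494 by limma), from 102.7 and 73.0 on the IgG arrays to between 24.6 and 39.7 on the HuD arrays. Csrnp1, at 0.59 ± 0.28, and Csrnp3, at 0.55 ± 0.28, did not pass either. Csrnp3 was bright in every group, with 1791.9, 1071.2 and 1218.0 on the HuD arrays, 1048.7 and 765.4 on the IgG arrays and 953.4 in the input. Its lowest HuD signal barely exceeded its highest IgG signal, by 1.02 times. A dimmer probe set of Csrnp3, 1456336_at, went the other way, at −0.71 ± 0.26 (adjusted p = 0.112 by limma). It gave 24.3, 11.2 and 24.4 on the HuD arrays and 55.3 and 49.4 on the IgG arrays. With 75th percentile centring the leading probe sets of Vstm2b, Nfya, Nfyc, Csrnp1 and Csrnp3 passed, with differences between 0.87 and 1.05. Vstm2b also passed on leading probe sets alone and with probe sets averaged (0.65), and Vstm5 passed as lower, at the same −0.99, without dim probe sets, without the mean-variance trend and with averaging.

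Of 15 measured genes around Tnfrsf21 (other death-domain receptors, adaptors, caspases, its candidate ligand App and the JNK kinases it can activate) 1 rose and 0 fell by limma. That is 6.67% and 0%, beside 8.35% and 12.1% of all genes on their leading probe sets. At an unadjusted p under 0.05, 2 were higher and 1 was lower, a share of 13.3% higher and 6.67% lower beside the 13.3% and 23.8% of all genes. Mapk8, which encodes the kinase JNK1, rose by 2.02 ± 0.24 (adjusted p = 0.00386 by limma). Its signals were 2320.1, 2142.7 and 1986.3 on the HuD arrays, 602.3 and 424.7 on the IgG arrays and 617.8 in the input, with HuD well clear of the rest. A second Mapk8 probe set, 1420932_at, rose by 2.44 ± 0.26, and the other 3 did not pass, at 1.04, 0.69 and −0.18. The next largest differences among leading probe sets did not pass. They were those of Mapk9 (1.07 ± 0.34, adjusted p = 0.0742 by limma), the adaptor Traf2 (−0.74 ± 0.31) and the adaptor Tradd (−0.53 ± 0.29). Mapk9 passed with median centring (1.22), 75th percentile centring (1.39) and quantile normalization (1.21), and at the same 1.07 when dim probe sets were left out or 1 leading probe set a gene was fitted. Its probe set 1421877_at went the other way, at −0.44 ± 0.23, and the dim 1421876_at stood at 0.56 ± 0.25, neither past the threshold. A second probe set of Mapk10, another JNK gene, rose by 0.87 ± 0.21 (adjusted p = 0.0292 by limma), with 1885.9, 1920.5 and 1793.2 on the HuD arrays, 999.7 and 1011.7 on the IgG arrays and 1848.4 in the input. Its leading probe set stood at −0.02 and did not pass. The list's median was −0.02.

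Of 16 measured genes of deoxynucleotide salvage and supply around Dck 3 rose and 2 fell by limma. That is 18.8% and 12.5%, beside 8.35% and 12.1% of all genes on their leading probe sets. With so few genes, the counts are not read as a trait of the pathway. Cmpk1, the kinase that adds the second phosphate to deoxycytidine monophosphate made by Dck, rose by 2.37 ± 0.32 (adjusted p = 0.00482 by limma). It gave 8873.3, 11248 and 9345.5 on the HuD arrays, 1357.5 and 2548.4 on the IgG arrays and 2903.6 in the input, and its second probe set rose by 2.60 ± 0.28. Rrm2b, the ribonucleotide reductase subunit of non-dividing cells, rose by 1.61 ± 0.20 (adjusted p = 0.00434 by limma), from 454.6 and 468.4 on the IgG arrays and 461.3 in the input to 1447.6, 1438.2 and 1544.5. Of its other 3 probe sets 1437476_at rose by 0.92, and those at 0.29 and 0.20 did not pass.

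The third rise was that of Dut, the enzyme that clears dUTP, at 1.05 ± 0.24 (adjusted p = 0.0267 by limma). Its call was lost when any 1 of the HuD or IgG arrays was left out, with differences between 0.92 and 1.20, and its second probe set, at 0.65, did not pass. Nt5c, a cytosolic nucleotidase that removes phosphate from deoxynucleotides, fell by 1.86 on the log2 scale (standard error 0.23, adjusted p = 0.00410 by limma). Its signals were 86.4, 120.1 and 97.4 on the HuD arrays against 416.1 and 482.5 on the IgG arrays and 489.0 in the input. Nt5m, its mitochondrial counterpart, named here because it completes the count, fell by 0.91 (adjusted p = 0.0268 by limma). That call was lost without any 1 of the HuD arrays or IgG array 1 and under the other 3 scalings, for example −0.60 with 75th percentile centring. The salvage kinases closest to Dck in function, Dguok (−0.30 ± 0.33), Tk1 (0.04 ± 0.12) and Tk2 (−0.98 ± 0.35), were named after their values were seen. By limma 0 of the 3 passed, and Tk2 alone had an unadjusted p under 0.05. The list's median was 0.03.

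**Figure D4:**
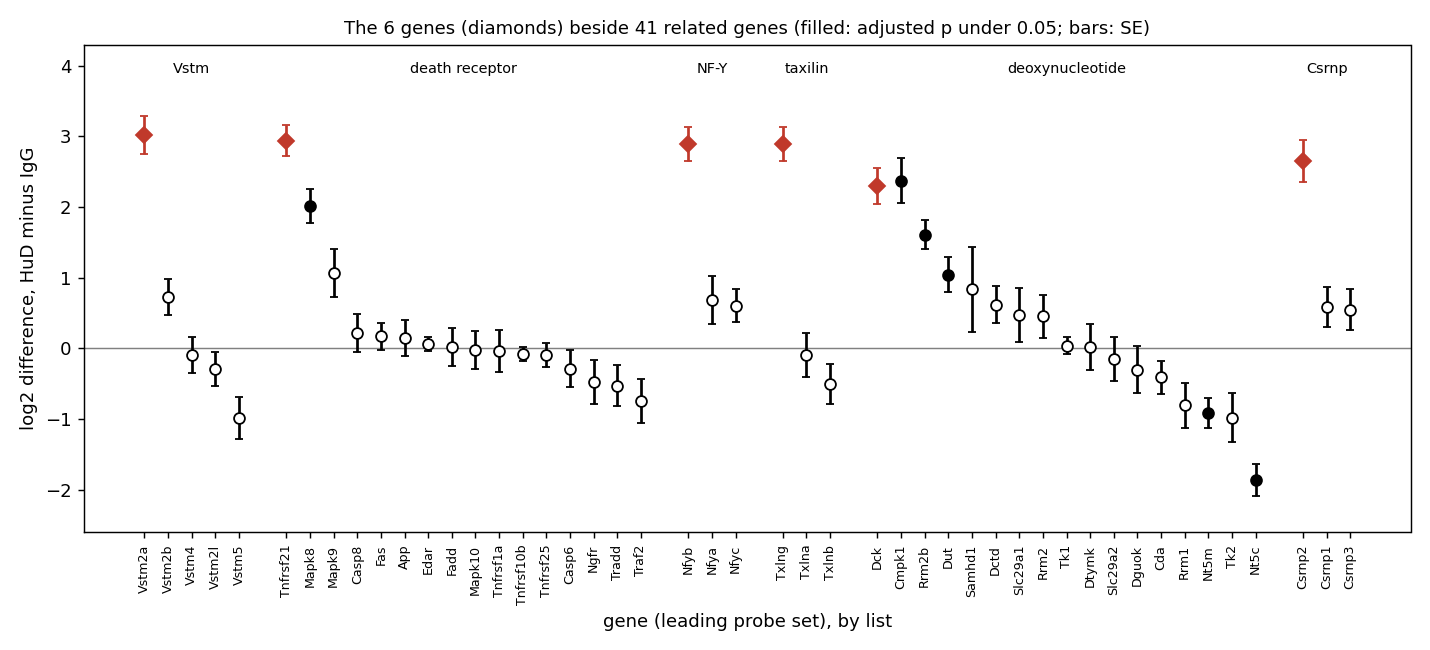
Difference between HuD and IgG in log2(signal + 32) on the leading probe set, for the 6 genes (red diamonds, chosen on this difference) and 41 related genes (circles, filled where the adjusted p was under 0.05 by limma), grouped by list, with bars for the standard error. Filled circles above 0 mark Mapk8, Cmpk1, Rrm2b and Dut, and those below 0 mark Nt5m and Nt5c. The paralogs and partners of Vstm2a, Nfyb, Txlng and Csrnp2 lie between −0.99 and 0.73.

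Because Nfyb is a subunit of the CCAAT-binding factor, the start regions of the 6 genes were searched for CCAAT on either strand (CCAAT or ATTGG), over the 250 bases before and 50 after each start in RefSeq's GRCm38.p6 annotation. All 6 genes matched the table by symbol. Only Txlng held the motif, once, against 37.4% of the 32851 start regions of that length. Its first base is base 24 of the transcript, on the opposite strand, and it is shown with its surroundings, in capitals, at chrX:162829417-162829441 (minus strand):

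Txlng: tcacgctacgATTGGttggggtgta

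The pulldown reads RNA and bears on no promoter, and the match is a description of the sequence alone.

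The tissue label was checked on the leading probe sets of marker genes. In the input the neuronal genes Snap25 (7145.7), Syt1 (5480.7) and Gad1 (3233.9) were bright, as was Neurod6 of pyramidal cells (716.5), while Prox1, a marker of dentate granule cells, was at 9.8. Ttr, the leading transcript of choroid plexus, was at 8913.3, but the other measured markers of choroid plexus and blood were between 1.3 and 278.2. The sums of these 6 markers, mostly Ttr, ran from 12242.1 to 15372.9 on the HuD arrays and from 16371.1 to 18652.4 on the IgG arrays. The input sum was 9485. Of the 6, 1 had every HuD array below both IgG arrays and 5 overlapped. The summed signals of 10 neuronal markers ran from 24782.6 to 28529.1 on the HuD arrays and from 21316.6 to 22121.8 on the IgG arrays, and were 21755.8 in the input. Every HuD array was above both IgG arrays for 2 of the 10 and below both for 4. Snap25, 1 of the 2 above, was the brightest of the 10 on every array. It gave 11135.8, 16051.1 and 11705.3 on the HuD arrays and 6243.4 and 8138.8 on the IgG arrays. The higher HuD sums rest on this gene and are not read as a rise of the list. Glial and vascular lists had lower sums on the HuD arrays. Those of 6 astrocyte markers ran from 6271.7 to 7765.7 on the HuD arrays and from 13791.9 to 16416.7 on the IgG arrays, and were 14156.4 in the input. In that list 4 markers had every HuD array below both IgG arrays, Slc1a3 had every HuD array above them and Aqp4 overlapped. The sums of 6 oligodendrocyte markers ran from 13260.6 to 17685 on the HuD arrays and from 22323.4 to 27886 on the IgG arrays, and were 16935.7 in the input. Those of 6 microglia markers ran from 1391.8 to 1917.1 and from 2783.3 to 4457.8, and were 4230.5 in the input. Those of 4 endothelial markers ran from 115.3 to 138.2 and from 291.5 to 337.1, and were 303.3 in the input. The HuD arrays lay below both IgG arrays for 5 of the oligodendrocyte, 4 of the microglia and 2 of the endothelial markers. The share of all genes in that order was not computed. By limma 12.1% of all genes were lower and 8.35% higher with HuD on their leading probe sets. Nothing is read from these counts for any of the marker lists. The part of these differences in the results above was not tested.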

How the data were processed

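The authors deposited linear intensities, with 1 signal for each probe set on each array. The mean without the lowest and highest 2% was 150.001 on every array, so the authors had scaled the arrays to a common level. The software behind the signals is not given in the sources used here, and there were no detection calls. After 64 array controls were left out, 45037 probe sets were tested. The platform annotation gave 34945 of them 1 gene symbol, 932 several and 9160 none, and only those with 1 were named. Entrez identifiers of 34741 were found in the RefSeq table of GRCm38.p6, and 0 symbols changed.

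Signals were transformed as log2(signal + 32), which understates the folds of dim probe sets. All 6 arrays entered a limma 3.58.1 fit (R 4.3.3) with a mean for each group, eBayes with a mean-variance trend and 3 residual degrees of freedom. Adjusted p-values are limma's, by Benjamini-Hochberg over all probe sets tested. The input group had 1 array, assumed to vary like the pulldowns. The SD of log2 differences across the brighter probe sets was 0.60 between the IgG arrays and between 0.348 and 0.458 for pairs of HuD arrays, so standard errors may understate the IgG spread. Nothing in the labels ties the arrays to separate animals or preparations, so p-values reflect the spread between arrays alone, which may be technical, and the number of arrays limits the precision. Replicate numbers follow the order of deposit. The fit was tested on data simulated with the same variance in all groups for a probe set. That test therefore does not cover the wider spread of the IgG arrays.

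The genes, the lists of relatives and the markers were chosen with earlier results of these data known. Named relatives were all genes of lists of at most 5 and the 4 largest differences of longer ones, and the 3 nearest genes were named for each pattern. Alternatives covered the pseudocount, the filter, the scaling, the variance prior, the arrays and groups fitted, the title ending as a block, and the probe sets per gene.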

Additional observations from a re-analysis of the deposited data

How the results depend on the processing

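The 6 genes were chosen on the difference between HuD and IgG, so the range of that difference is a description and no sign of stability. On the leading probe sets it ran from 2.12 (Dck, quantile normalization) to 3.34 (Vstm2a, 75th percentile centring), and with probe sets averaged it was as low as 1.43 (Txlng). The count of member probe sets past an adjusted p of 0.05, 8, ran from 7 to 10 where all were fitted, and 0 were called between IgG and input in any setting. With 75th percentile centring the second probe sets of Nfyb (1419266_at) and Dck (1428838_a_at) stood at 1.36 and 0.62.

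Calls over all probe sets moved more. Between HuD and IgG, 6497 became 11241 with 75th percentile centring, 3658 genes with probe sets averaged, and 725 to 6247 with 1 array left out. Between HuD and input, 2669 became 5711 above the median, 4790 with 75th percentile centring, 4302 with median centring, 1775 with averaging, 4189 with only the groups compared, and 0 to 4005 with 1 array left out. It was 0 without HuD array 1, 2 or 3 (7167, 8385 and 7368 at an unadjusted p under 0.05 by limma). Without IgG array 1 it was 4005. Between IgG and input, 0 became 54 above the median, 61 with 75th percentile centring, 1 with median centring and 2 on leading probe sets, and stayed 0 with 1 array left out (2325 to 6305 unadjusted by limma). Of the relatives, 12 rose with 75th percentile centring and 3 to 4 with 1 array left out. The 2 that fell became 5 above the median, 1 with 75th percentile centring, median centring or quantile normalization, and 1 to 2 with 1 array left out (1 without HuD array 1, 2 or 3 or IgG array 1). The cause was not tested.

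The title ending as a replicate block left 5202 calls between HuD and IgG, 0 between HuD and input (7745 unadjusted by limma) and 0 between IgG and input (3048 unadjusted by limma), and kept the counts of members (8) and relatives (4 and 2). Deviations of HuD and IgG arrays by title ending correlated at −0.04 across the brighter probe sets. With a single IgG array for each ending, this value cannot decide whether the endings pair the arrays. The main fit holds no pairing. The 2 IgG arrays and the single input array limit every statement on the background, and signals of a few units carry no usable fold.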
